A study of Solanum lycopersicum with 8 samples.

Results

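Shoot apical meristems of the tomato mutant late termination (ltm) were compared with wild-type (WT) meristems in seedlings with 6 leaves, across all genes with enough reads. The groups were 2 libraries from ltm plants with 6 leaves and 2 libraries from WT plants with 6 leaves, lettered A and B in each group. All were made from meristems dissected out of greenhouse seedlings fixed in acetone, so the mutation was the difference named by the labels. Normalized counts are the authors' values, reads divided by 1 size factor per library. Genes with a normalized count of at least 10 in at least 2 of these 4 libraries were tested, which left 18668 of 34722 genes. The series also holds 2 ltm and 2 WT libraries from plants with 4 leaves, which entered the fit so that all groups shared 1 estimate of the spread. Whether the repeats came from separate plants is not stated in the labels, so a p-value here reflects how much these libraries varied, possibly for technical reasons alone. The mutated locus is not given in the labels, so no targeted gene was available to check the genotype.

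The shoot apical meristem holds the stem cells from which leaves and, after the floral transition, flowers are made. In tomato the first shoot ends in an inflorescence after a set of leaves, and side shoots then continue growth. A class of homeobox genes (KNOX), among them the tomato KNOTTED homologues, keeps meristem cells undifferentiated, while the WUSCHEL and CLAVATA genes set the size of the stem cell pool. MADS-box genes of the FRUITFULL group and the LEAFY homologue FALSIFLORA are activated or needed as a meristem becomes floral.

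The libraries held between 17895357 reads in WT B and 21135063 reads in ltm A at 6 leaves, and between 19716194 and 21987881 reads at 4 leaves. Defining meristem genes were present in every library: TKN2, a KNOX gene, averaged 6540 ± 403 normalized counts in ltm and 5927 ± 1274 in WT (SD, n = 2 each), and WUS, which maintains the stem cell niche, averaged 190 ± 32.8 in ltm and 188 ± 16.3 in WT. CLV3, which encodes the signal peptide that restricts WUS, averaged 154 ± 38.3 normalized counts in ltm and 237 ± 133 in WT. The 5 leaf photosynthesis genes were all present, with summed normalized counts of 4573 and 5010 in ltm A and B and 5430 and 5367 in WT A and B. Of the 5, 3 were lower in both ltm libraries than in either WT library, as were 21.9% of all tested genes. Of these 5 genes, 0 passed an unadjusted p under 0.05, and their part in the results was not tested. On principal components of all tested genes, WT B stood highest of the 8 libraries on the second component, which carried 21.98% of the variance, while the first (34.18%) set apart both B libraries with 4 leaves. In bulk tissue, fewer cells of a type and less RNA per cell cannot be told apart.

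**Figure D1:**
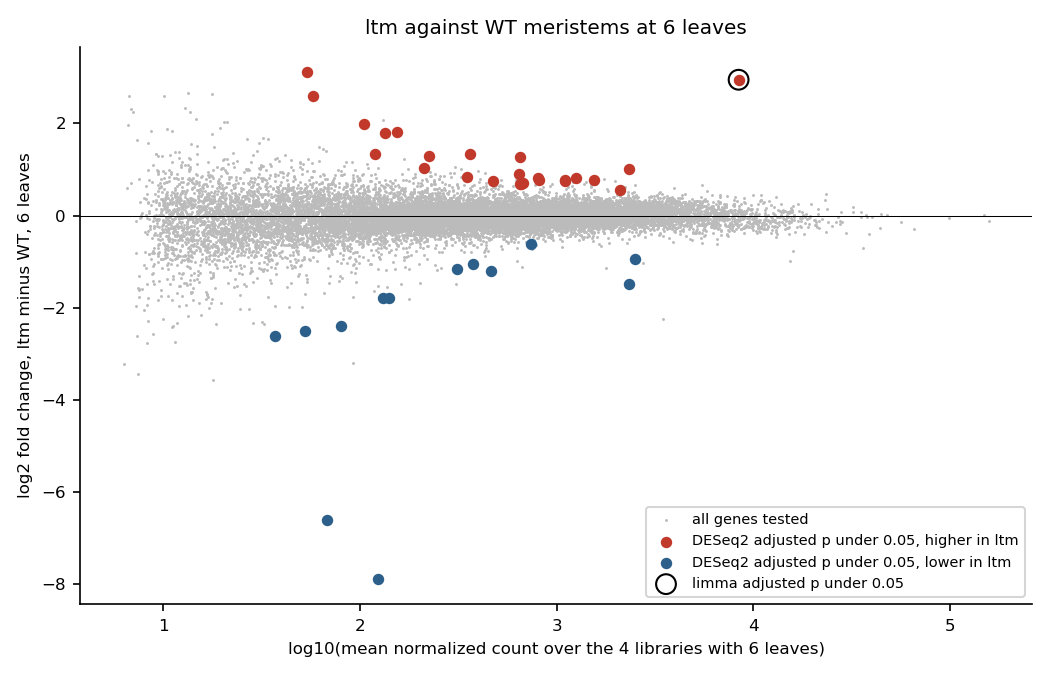
Log2 fold change of ltm over WT at 6 leaves (vertical axis) against the log10 mean normalized count over the 4 libraries (horizontal axis) for 18668 genes. Red and blue points are the 25 higher and 13 lower genes called by DESeq2, and the ringed point is Solyc01g100600, the gene called by limma, which lies alone at a high level and a log2 fold change of 2.95.

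In ltm meristems at 6 leaves, 1 gene passed the main limma test adjusted over all tested genes, and DESeq2 called few others. limma on log2 normalized counts, with Benjamini-Hochberg adjustment over all tested genes, called 1 gene, Solyc01g100600, or 0.00536% of those tested. The same test left 678 genes higher (3.63%) and 554 lower (2.97%) in ltm at an unadjusted p under 0.05, together 1232 genes (6.6%), and 1889 genes (10.1%) when the letters A and B were used as a replicate block. Both ltm libraries lay outside the WT range for 8324 genes (44.6%), 4234 above it (22.7%) and 4090 below it (21.9%), so a gap between the groups is common in these 4 libraries. edgeR's quasi-likelihood test on the reads, recovered by undoing the division by the size factor, also called 1 gene, and DESeq2 on those reads called 38 (0.204%), of which 25 were higher in ltm (0.134%) and 13 lower (0.0696%). Leaving out WT B lowered the DESeq2 count to 5 genes, and leaving out ltm A or ltm B lowered it to 14 or 11. Without ltm A or ltm B of 4 leaves it was 71 or 70. Of the 38 genes, 3 were called whichever of the 8 libraries was left out and 6 in 6 of those 8 fits; each of the 35 genes beside those 3 lost its call without at least 1 library with 6 leaves. With the 4 libraries of 6 leaves taken alone and the letters used as a replicate block, limma called 1201 genes (6.43%), a fit chosen after the data were seen that has 1 residual degree of freedom per gene. Of 69 tested named genes, that fit called 64 that limma without the block did not. The named genes were chosen from values that include these same 4 libraries, so the count is a description and no independent support. In the plot of fold change against level, most tested genes lay close to 0, and 338 (1.81%) had a log2 fold change of at least 1 in either direction.

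Solyc01g100600, on chromosome 1 by its identifier, had 14766 and 15031 normalized counts in ltm A and B, against 1843 and 2020 in WT A and B. Both ltm libraries lay far above both WT libraries, and the repeats of each genotype were close to each other. The gene averaged 14898 ± 187 normalized counts in ltm and 1932 ± 125 in WT (SD, n = 2 each), a ratio of means of 7.71. Its log2 fold change was 2.95 ± 0.15 (SE), with a limma adjusted p of 0.00075 and a DESeq2 adjusted p of 2.17e-70. It was called by limma or edgeR in 19 of 19 settings of the filter, scaling, pseudocount, samples and replicate block, and by DESeq2 in 8 of 8 fits that left out 1 library. The deposited files give no name for this gene, and the RefSeq gene table used here does not pair one with it.

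Some genes beside it in identifier order also had positive log2 fold changes, of smaller size. Solyc01g100620, the second tested gene after it, had 205 and 214 normalized counts in ltm A and B and 51.8 and 69.1 in WT A and B, and rose by DESeq2 (log2 fold change 1.79 ± 0.42 SE in limma, DESeq2 adjusted p = 0.0276, and up to 0.796 when 1 library was left out). Solyc01g100640, the third after it, had a log2 fold change of 1.32 at low levels, with means of 41.5 in ltm and 15.8 in WT, and a DESeq2 adjusted p of 0.922. The genes on either side, Solyc01g100590 and Solyc01g100610, had log2 fold changes of 0.43 and 0.32. Beyond these, the tested neighbours lay between -0.28 and 0.25. Whether neighbouring genes share reads was not tested.

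**Figure D2:**
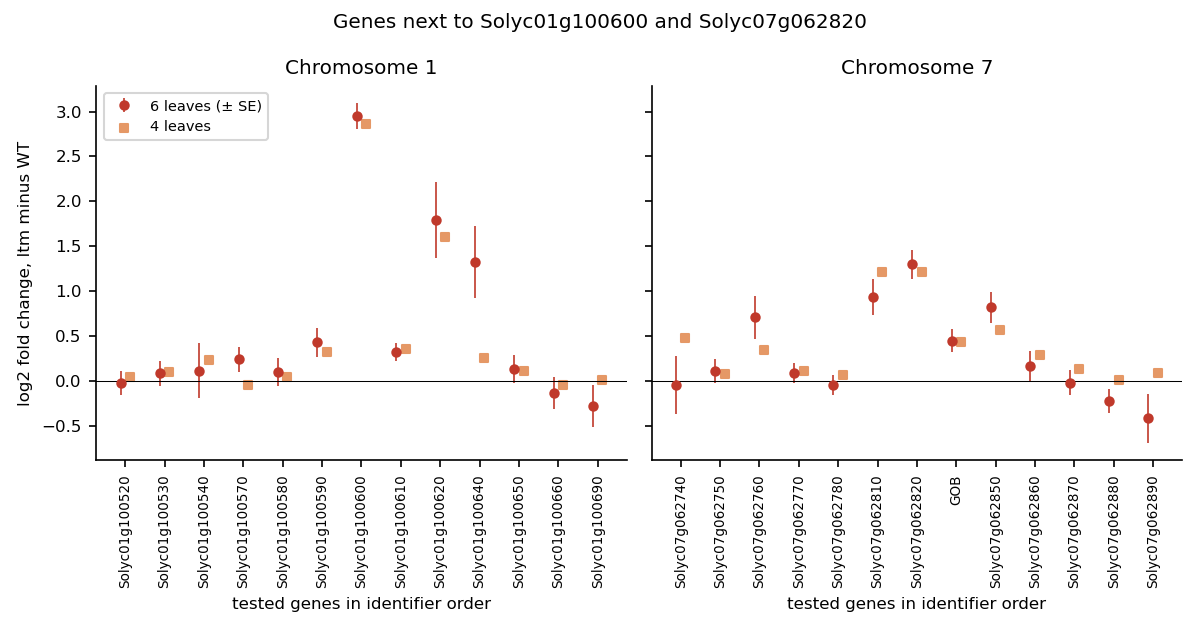
Log2 fold change of ltm over WT (vertical axis) for 13 tested genes around Solyc01g100600 on chromosome 1 and 13 around Solyc07g062820 on chromosome 7, in identifier order (horizontal axis); circles with SE bars are 6 leaves and squares 4 leaves. On chromosome 1 the values stand out at Solyc01g100600 and again at Solyc01g100620, and on chromosome 7 the highest are Solyc07g062820, Solyc07g062810, Solyc07g062850 and Solyc07g062760, with GOB next at 0.45.

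Of the 8 tested meristem genes, TKN1 had the largest log2 fold change. TKN1 (Solyc04g077210), a class I KNOX homeobox gene expressed in the meristem, had 3320 and 2929 normalized counts in ltm A and B, against 1580 and 1532 in WT A and B. Both ltm libraries lay well above both WT libraries, and the ratio of the means was 2.01. TKN1 rose by DESeq2 (adjusted p = 2.08e-05, and 0.0653 without ltm A, 1 of the 2 libraries whose loss ended the call, the other being WT B), while limma gave a log2 fold change of 1.0 ± 0.15 (SE) with an adjusted p of 0.254. The other 7 tested members of the meristem list did not pass an unadjusted p under 0.05: TKN2, TKN3 and TKN4 had log2 fold changes of 0.16, 0.04 and -0.21, and WUS, CLV1 and CLV3 had 0.01, -0.01 and -0.52. CLE9, a CLV3-related signal peptide gene, had 0.43. The list's median was 0.02, against -0.004 over all tested genes.

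Of the 5 genes of organ boundaries in the shoot, 4 had a positive log2 fold change, where 9183 of 18668 tested genes did. GOB (Solyc07g062840), the NAC-domain boundary gene GOBLET, had 4951 and 5086 normalized counts in ltm A and B. In WT A and B it had 3438 and 3928, without overlap. Over all tested genes, 22.7% had both ltm libraries above the WT range. GOB had a log2 fold change of 0.45 ± 0.13 (SE) and a limma adjusted p of 0.693. LS, BOP2 and BOP3 had log2 fold changes of 0.24, 0.27 and 0.21, and LFS -0.20. None of the 5 was called by limma or DESeq2. Next to GOB in identifier order, Solyc07g062820 and Solyc07g062850 both rose by DESeq2 (adjusted p = 0.000112 and 0.0179). The call of Solyc07g062820 ended without ltm B or WT B, and that of Solyc07g062850 without any 1 library of 6 leaves. Solyc07g062810 and Solyc07g062760, which were not called, had log2 fold changes of 0.93 and 0.71. Solyc07g062820 had 309 and 335 normalized counts in ltm A and B and 144 and 117 in WT A and B, a log2 fold change of 1.30 ± 0.16 (SE).

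SUT1 (Solyc11g017010), the sucrose transporter that loads sucrose into the phloem, had 420.2 and 483 normalized counts in ltm A and B, against 237 and 268 in WT A and B. All ltm values were above all WT values. SUT1 rose by DESeq2 (adjusted p = 0.0277), with a log2 fold change of 0.83 ± 0.14 (SE) and a limma adjusted p of 0.434; the DESeq2 call was lost when any single library with 6 leaves was left out (adjusted p up to 0.925). The 2 other sucrose transporters in the list, SUT2 and SUT4, had log2 fold changes of 0.07 and 0.19. Invertases and sucrose synthases, which split sucrose, lay between -0.05 and 0.14 (LIN6, TIV1, SUS1 and SUS3). Of 9 tested members of 12 in the sugar list, 1 was higher and 0 lower at an unadjusted p under 0.05, where all tested genes gave 3.63% and 2.97%, with a median of 0.13.

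By the rule that took the 12 smallest p-values in each direction among non-overlapping genes with a log2 fold change of at least 1 in size and a mean of at least 50 in 1 group, most genes had no RefSeq name. The candidates for this rule were 39 higher genes (0.209% of those tested) and 66 lower ones (0.354%). Of the 12 higher genes, 8 were called by DESeq2, where 0.204% of all tested genes were. The rule used limma p-values from the same libraries, so that count is a description and no independent support. The limma log2 fold changes of the 12 genes ran between 1.0 and 3.11 with a median of 1.21. Solyc12g088940 had 59.6 and 136 normalized counts in ltm A and B and 8.96 and 10.2 in WT A and B; it rose by DESeq2 (log2 fold change 3.11 ± 0.43 SE in limma, DESeq2 adjusted p = 8.93e-05, and 0.131 without ltm B). The ltm repeats differed from each other but both were far above WT. Solyc05g005130 had 177 and 309.9 in ltm A and B and 71.7 and 61.2 in WT A and B, and Solyc11g020280 had 899 and 936 in ltm and 425 and 342 in WT. Both rose by DESeq2 (adjusted p = 0.00381 and 0.000224). The remaining higher genes of the rule included Solyc03g095940, with 168 and 176 in ltm A and B and 71.7 and 63.4 in WT A and B.

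**Figure D3:**
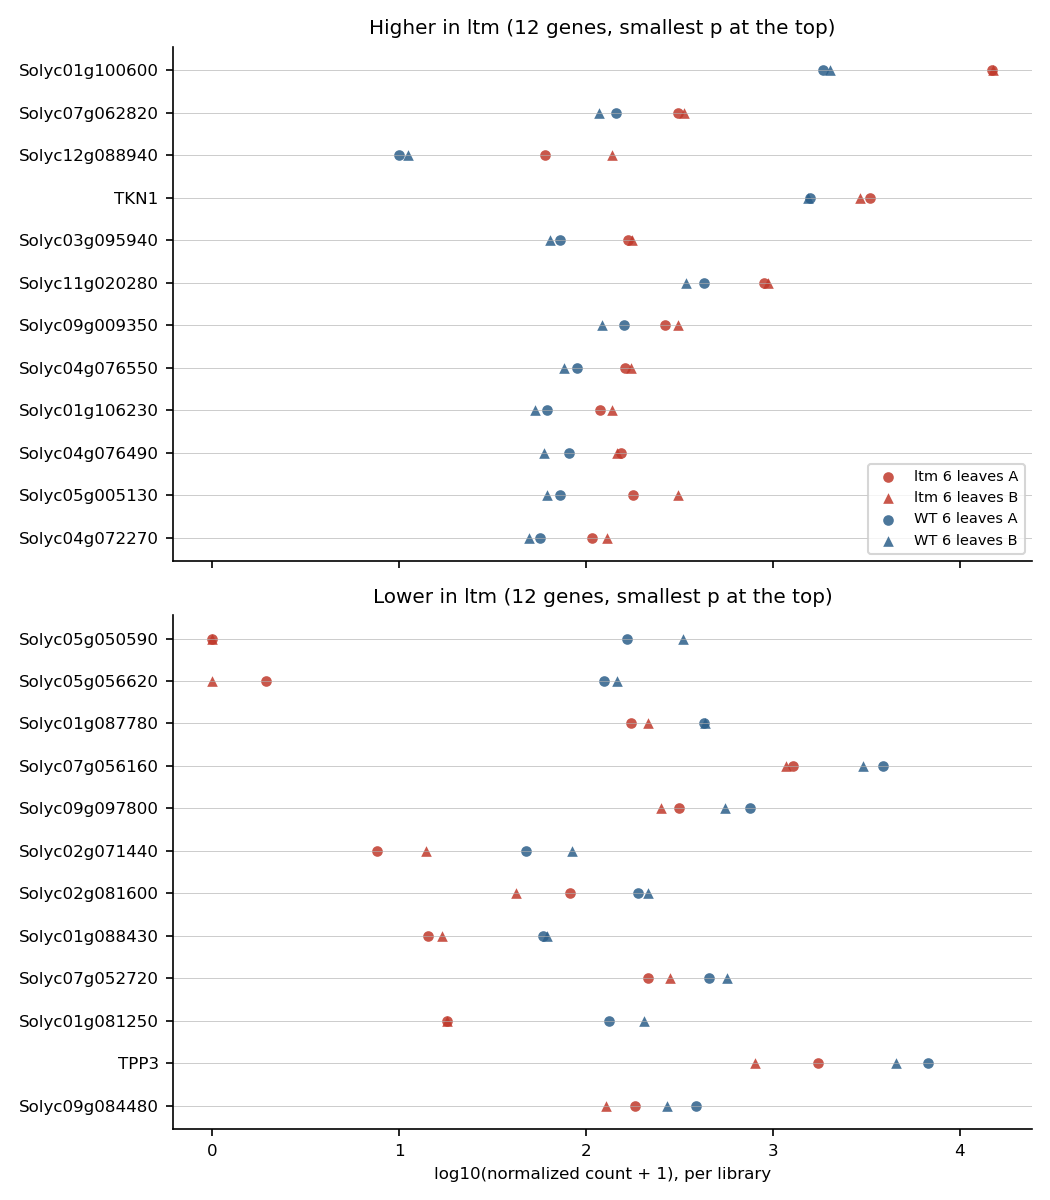
Log10 of normalized count plus 1 (horizontal axis) in each library with 6 leaves for the 12 higher and the 12 lower genes of the rule, with ltm in red and WT in blue, circles for A and triangles for B. The genotypes do not overlap in any row, as the rule requires; Solyc05g050590 is at 0 in both ltm libraries.

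A pair of the lower genes had almost no reads in ltm meristems. Solyc05g050590 had no read in either ltm library at 6 leaves, against 166 and 292 reads in WT A and B. Against a floor of 3 reads over the 2 ltm libraries it was at least 166-fold lower in ltm, and it fell by DESeq2 (adjusted p = 0.00261; limma adjusted p = 0.0989), a call lost without any 1 library of 6 leaves. Solyc05g056620 had 1 read in ltm A and 0 in ltm B, against 125 and 129 reads in WT A and B, a ratio of WT over ltm of 277 with size factors applied (95% exact interval 49.2 to 10978, covering counting error only). It too fell by DESeq2 (adjusted p = 0.000224), with a limma adjusted p of 0.109. The symbol MC of the floral transition list was tried for Solyc05g056620 but found no pair in RefSeq. Solyc08g006860, which did not pass the filter, had 0 reads in ltm and 62 in WT, all of them in WT A.

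Solyc07g056160 fell in ltm by DESeq2 (adjusted p = 6.61e-08), with 1273 and 1177 normalized counts in ltm A and B, against 3882 and 3021 in WT A and B. Its log2 fold change was -1.48 ± 0.22 (SE) with a limma adjusted p of 0.254, and with Solyc01g100600 and Solyc05g056620 it was 1 of 3 genes called by DESeq2 whichever single library was left out. Solyc01g087780 had 172 and 214 in ltm A and B and 427 and 434 in WT A and B, and Solyc09g097800 had 312 and 251 in ltm and 754 and 552 in WT; both fell by DESeq2 (adjusted p = 0.00012 and 8.93e-05). TPP3 (Solyc07g006380), a defensin-like protein first described in tomato flowers, had 1738 and 801 in ltm A and B and 6780 and 4568 in WT A and B. Its groups did not overlap, although the repeats of each genotype differed, and its limma adjusted p was 0.588 at a log2 fold change of -2.24 ± 0.48 (SE). A was above B in both genotypes, and with the letters as a replicate block the limma adjusted p was 0.115 over all 8 libraries. The same block with the 4 libraries of 6 leaves alone gave a limma adjusted p of 2.13e-07. That fit, chosen after the data were seen, called 6.43% of all tested genes, so its value is no independent support. Of the 12 lower genes 8 were called by DESeq2, where 0.204% of all tested genes were. This count too is a description, because the rule used the same libraries. The median of the fitted log2 fold changes of the 12 was -1.87.

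Further lower genes of the rule follow, with no name in RefSeq here. Solyc02g081600 had 81.4 and 41.0 normalized counts in ltm A and B and 189 and 214 in WT A and B, and Solyc07g052720 had 213 and 279 in ltm and 453 and 569 in WT; both fell by DESeq2 (adjusted p = 0.00138 and 0.0146). Solyc02g071440 fell by DESeq2 too (adjusted p = 0.00903), with 6.62 and 13 in ltm A and B and 46.8 and 82.7 in WT A and B. Solyc01g081250 had 17.0 and 17.0 in ltm and 132 and 204 in WT, with groups far apart, but was not called by limma or DESeq2 (adjusted p = 0.588 and 0.0752). In each of these genes WT B was the higher WT library.

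Of the 38 DESeq2 calls, 22 lay outside the rule, mostly because their log2 fold change was under 1 in size. Among the better expressed, Solyc01g092950 fell, with 1682 and 1742 normalized counts in ltm A and B and 2839 and 3775 in WT A and B (log2 fold change -0.94 ± 0.15 SE in limma, DESeq2 adjusted p = 0.000156). For this gene the symbol STM3 of the floral transition list was tried, without a pair in RefSeq. Solyc02g014190 had 1343 and 1458 in ltm and 854 and 775 in WT, and Solyc11g071620 had 1054 and 1013 in ltm and 610.4 and 593 in WT. Both rose by DESeq2 (adjusted p = 0.000224 and 0.000379), with tight repeats in each genotype. The low-level genes Solyc10g084950, with 71.0 and 128 in ltm and 21.9 and 10.2 in WT, and Solyc01g060210, with 141 and 196 in ltm and 43.8 and 38.5 in WT, also rose (DESeq2 adjusted p = 0.00903 and 0.0121). None of the genes named in this paragraph was called by limma (adjusted p between 0.182 and 0.588). Each of them lost its DESeq2 call without WT B of 6 leaves. By identifier, the 38 calls were spread over all 12 chromosomes and the unplaced group, with 8 on chromosome 1 and 5 each on chromosomes 2 and 7. Of the 18668 tested genes, 2419 were on chromosome 1, 2010 on chromosome 2 and 1371 on chromosome 7.

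A wound-response gene had a lower level in ltm without passing the test. PIIF (Solyc09g084470), a wound-inducible proteinase inhibitor, had 204 and 121 normalized counts in ltm A and B and 552 and 354 in WT A and B, a log2 fold change of -1.49 ± 0.44 (SE) and a limma adjusted p of 0.725. Here too A was above B in both genotypes, and with the replicate block the limma adjusted p was 0.122 over all 8 libraries. With the 4 libraries of 6 leaves alone it was 7.78e-05, in the fit chosen after the data were seen. That fit called 6.43% of all tested genes, so its value is no independent support. Its neighbour in identifier order, Solyc09g084480, had 182 and 127 in ltm and 384 and 271 in WT. The other tested genes of the jasmonate and wounding list, 10 in number, had no unadjusted p under 0.05, and the list's median was -0.03; AOS, AOC and OPR3, enzymes of jasmonate synthesis, had log2 fold changes of 0.25, 0.25 and -0.01.

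Among 31 tested of 39 auxin genes, 1 was higher and 4 lower at an unadjusted p under 0.05 (3.63% and 2.97% over all tested genes), and the median log2 fold change was -0.12. None was called by limma or DESeq2. IAA7, an Aux/IAA repressor of auxin response, had 197 and 185 normalized counts in ltm A and B and 294 and 370.4 in WT A and B, a log2 fold change of -0.79 ± 0.17 (SE). The repressor IAA15 had -0.74, and the auxin influx carriers LAX1 and LAX2 had -0.46 and -0.28, while ARF7, an auxin response factor, had 0.46.

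The lateral organ list held 12 tested genes of 13, of which 3 were higher and 2 lower at an unadjusted p under 0.05, against 3.63% and 2.97% of all tested genes. BRC1a and BRC1b, the BRANCHED1 homologues of the TCP family that hold back axillary bud outgrowth, had log2 fold changes of 0.80 and 0.90, and OVATE, known for limiting fruit elongation, had 0.75. LA, the CIN-type TCP gene LANCEOLATE, and YABBY5a had -0.57 and -0.50. BRC1a had 77.6 and 91.0 normalized counts in ltm A and B and 59.7 and 38.5 in WT A and B, and OVATE had 242 and 364 in ltm and 172 and 180.1 in WT. In both, neither ltm library overlapped WT, and the limma adjusted p-values were 0.738 and 0.674. BRC1b was named after its value was seen, because the rule for named genes stopped at 4 per list.

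Genes of floral transition, 8 tested of 15, had 8 of 8 log2 fold changes below 0 in ltm, with 6 at an unadjusted p under 0.05 and a median of -1.13. Over all tested genes, 9485 of 18668 were below 0 and 2.97% were lower at that threshold. The median was -0.52 without WT B and -1.45 without WT A, and S, with 31.2 and 51.0 normalized counts in ltm A and B and 59.7 and 181 in WT A and B, was highest in WT B. The list was drawn up with earlier results of these libraries known. Among symbols tried for it, MC for Solyc05g056620 and STM3 for Solyc01g092950 had no RefSeq pair, so both genes are outside these counts. Both fell by DESeq2, as given above. TMF, COL1, COL2 and COL3 were left out for the same reason. MBP20, a FRUITFULL-type MADS-box gene, had 19.9 and 11.0 normalized counts in ltm A and B, against 71.7 and 109 in WT A and B, and fell by DESeq2 (log2 fold change -2.50 ± 0.56 SE in limma, DESeq2 adjusted p = 0.0358, a call lost without any 1 library of 6 leaves). FUL1, FUL2, FYFL and S had -1.44, -0.95, -1.31 and -1.36 and FA -0.44, while J and AP2a had -0.18 and -0.04, none of them called by limma or DESeq2. In the floral organ list, AGL6, a MADS-box gene, had 0 and 1 read in ltm and 13 and 10 reads in WT. Below the filter, the SEPALLATA-type MADS-box genes J2 and LIN had 1 and 0 reads over both ltm libraries, against 27 and 16 reads over both WT libraries. In the other direction, AN, the F-box gene ANANTHA needed for floral identity, had 5 and 4 reads in ltm A and B and 1 and 0 in WT A and B, and SP, the repressor of flowering SELF-PRUNING, had 11 and 5 in ltm and 8 and 0 in WT. CRCa, a CRABS CLAW-type YABBY gene, had 253 and 339.9 normalized counts in ltm A and B and 150.4 and 172 in WT A and B, a log2 fold change of 0.86 ± 0.19 (SE).

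**Figure D4:**
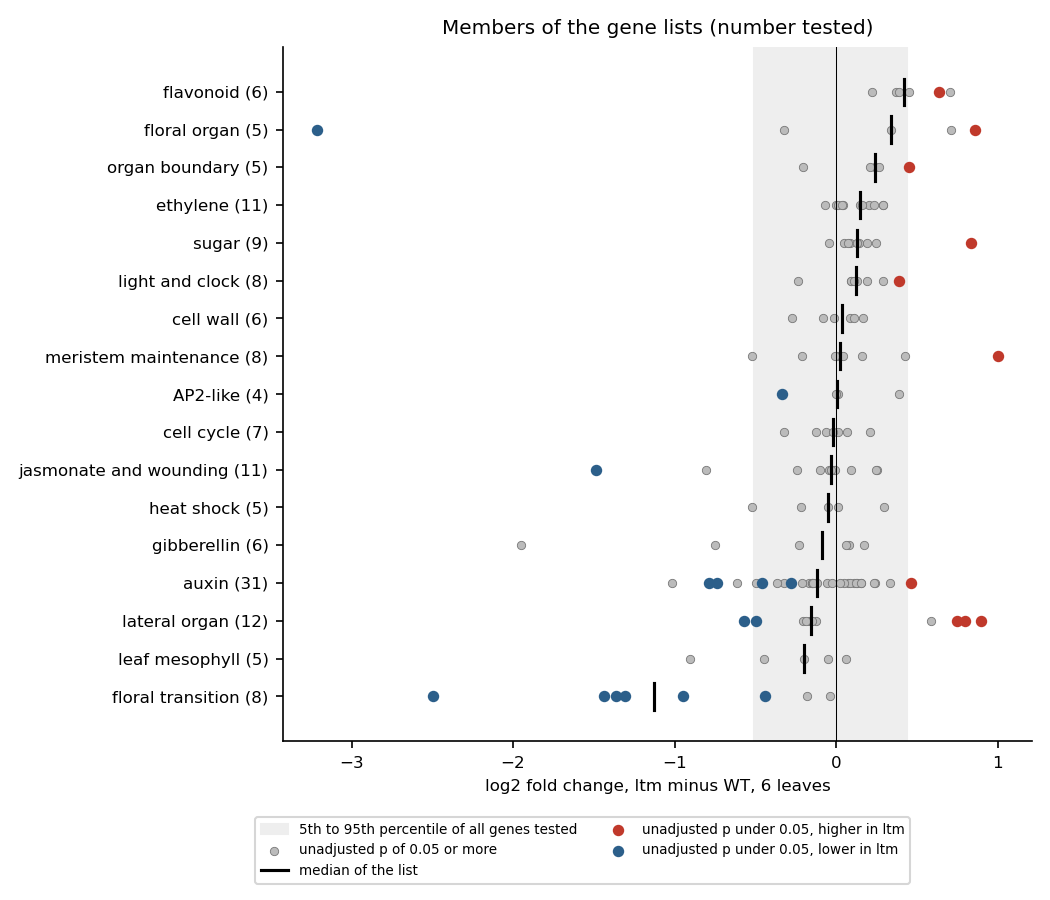
Log2 fold change of ltm over WT at 6 leaves (horizontal axis) of the tested members of 17 gene lists with at least 4 tested members (vertical axis, number tested in brackets), with black bars at medians, colour for unadjusted p under 0.05 and a grey band for the 5th to 95th percentile of all tested genes. MBP20, FUL1, FUL2, FYFL and S of floral transition lie left of the band, while most members of the other lists lie within it.

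Other lists showed few differences. The flavonoid list had 6 of 6 tested members above 0, where 9183 of 18668 tested genes were, with a median of 0.42 at 6 leaves and 0.0005 at 4 leaves. The median at 6 leaves was 0.25 without WT B and 0.63 without ltm B. MYB12, its regulator, had 256 and 239 normalized counts in ltm A and B and 159 and 157 in WT A and B (log2 fold change 0.64 ± 0.25 SE, limma adjusted p = 0.74). Of the light and clock list, 7 of 8 were above 0, and PHYB2, a phytochrome, had 0.39. SBP3 had 155 and 139 normalized counts in ltm A and B, against 252 and 439 in WT A and B. Its log2 fold change was -1.17, and that of CNR, the other tested SBP-box gene, was -0.61 (limma adjusted p = 0.738 and 0.821). Over all tested genes, 9485 of 18668 were below 0. AP2b had a log2 fold change of -0.34. The ethylene (11), gibberellin (6), cell cycle (7), cell wall (6), cytokinin (2), heat shock (5) and leaf mesophyll (5) lists had no tested member at an unadjusted p under 0.05. The 5 cell cycle genes CDKA1, CDKB1, CDKB2, WEE1 and RBR1 lay between -0.13 and 0.21. CD2, the 1 epidermis gene tested, had 0.05. Across the lists, 43 of 196 named genes did not pass the filter.

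The same contrast was read in the libraries with 4 leaves. These set no fold change at 6 leaves, but they entered the estimate of the spread by which the genes were chosen, so the counts of p-values at 4 leaves are a description and not independent of the choice. Of the 12 higher genes, 12 had the same sign at 4 leaves, 10 with an unadjusted p under 0.05 in the same direction, and the median was 0.92 there. Of the 12 lower genes, 12 kept the sign, 8 with an unadjusted p under 0.05, and the median was -0.91. Over all tested genes, 305 were higher (1.63%) and 240 lower (1.29%) in ltm at 4 leaves at that threshold. Of the DESeq2 calls, 25 of 25 higher and 13 of 13 lower genes kept their sign, against 64.2% and 64.0% of all tested genes above and below 0 at 6 leaves. Most of those tested genes had small changes. Of genes at an unadjusted limma p under 0.05 at 6 leaves, 616 of 678 higher (90.9%) and 450 of 554 lower (81.2%) kept their sign. Solyc01g100600 had a log2 fold change of 2.86 at 4 leaves, and TKN1 had 0.92. Over all tested genes, the difference between leaf numbers was called for 0 by limma, with 133 genes (0.712%) at an unadjusted p under 0.05.

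**Figure D5:**
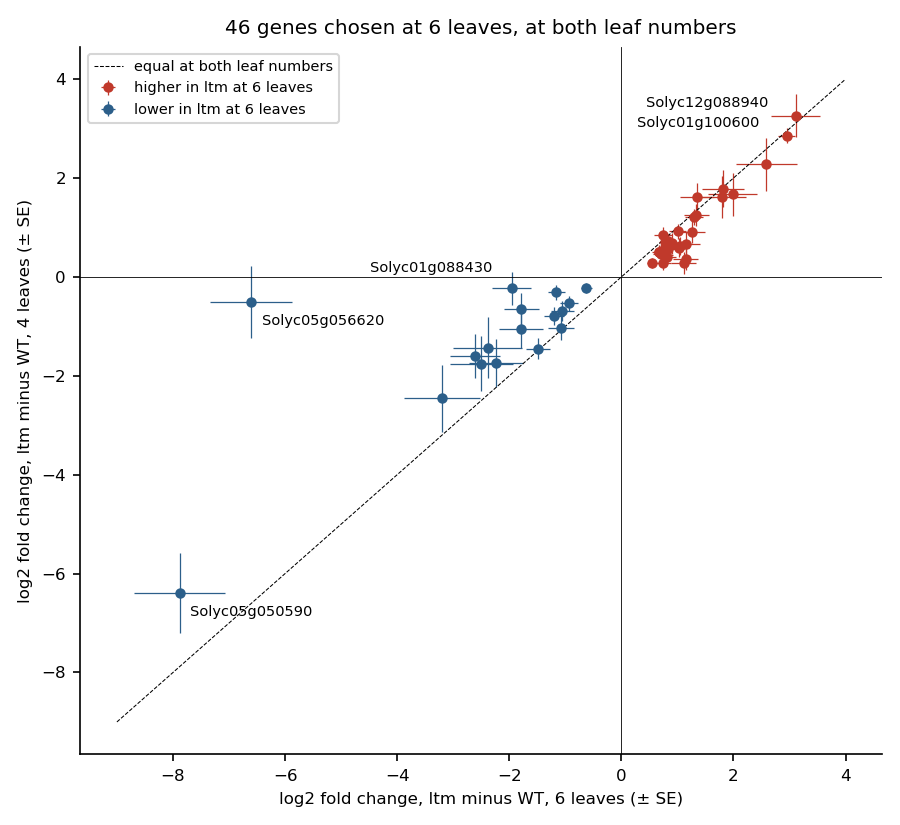
Log2 fold change of ltm over WT at 6 leaves (horizontal axis) against 4 leaves (vertical axis), both with SE bars, for 46 genes called or selected at 6 leaves. Red genes are higher and blue genes lower in ltm at 6 leaves; 46 of 46 lie on the same side of 0 at both leaf numbers, and Solyc05g056620 lies far above the dashed line of equal values. The fitted values of Solyc05g050590 and Solyc05g056620 depend on the pseudocount of 1.

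Solyc05g056620 had the smallest p for a difference between leaf numbers among the named genes, with 0 reads in ltm and 1 in WT at 4 leaves, against 1 and 254 at 6 leaves (limma unadjusted p for the difference 0.000358). Solyc01g087780 had a log2 fold change of -0.31 at 4 leaves and Solyc01g088430 had -0.23 (unadjusted p for the difference 0.00388 and 0.00744). Neither these nor any other gene passed the adjusted test of the difference. The named genes were mostly chosen for their contrast at 6 leaves, which is part of this difference. Their unadjusted p-values for it are therefore a description and tend to be small by the choice. Solyc05g050590, with 0 ltm reads at both leaf numbers, had 36 and 198 WT reads at 4 leaves, and no ltm library of either leaf number held a read of it.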

How the data were processed

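Normalized RNA-seq counts of 8 tomato meristem libraries were read from 1 deposited table, with a column for each library. The submitters' processing notes name TopHat2 2.0.10, HTSeq 0.6.1p1 and DESeq2 1.6.3. The notes name these tools without order, with the build not given in the sources used here. Each deposited value is a signal, which the values show to be a number of reads divided by 1 factor per library. Dividing by the smallest positive value of a library recovered whole reads for 100% of values (tolerance 1e-06), and these reads were tested with edgeR 4.0.16 and, separately, DESeq2 1.42.0 as alternatives.

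A gene was kept if 2 or more of the 4 libraries with 6 leaves reached 10. limma 3.58.1 with trend was run in R 4.3.3 on log2(value + 1), a scale that understates the change of low genes, with 1 mean for each of the 4 groups over 8 libraries. The contrast was ltm minus WT at 6 leaves, with Benjamini-Hochberg adjustment over 18668 genes and a threshold of 0.05.

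Deviations of the A libraries from their group means were correlated between all groups (0.111 to 0.522), a sign of pairing in the values that the labels do not state. The reported limma values use no block; the replicate block was an alternative. Named genes were those called by limma or DESeq2, the 12 smallest p-values in each direction among non-overlapping genes with a log2 fold change of at least 1 and a mean of at least 50, genes with 3 reads or fewer in 1 genotype and at least 60 in the other, and up to 4 members per list at an unadjusted p under 0.05. Symbols were matched to the RefSeq gene table by chromosome and rank position within 5% of the chromosome's genes, for 196 of 252 pairs tried in 21 lists; other genes are given by identifier, without its version suffix. Lists by gene description could not be made because that table holds none, and the earlier lists were rebuilt by identifier. Genes and lists were chosen with earlier results of these data known. Intervals and floors cover counting error only.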

Additional observations from a re-analysis of the deposited data

How the results depend on the processing

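With 2 libraries a group, the number of genes limma called at 6 leaves stayed between 1 and 2 when 1 library was left out. It was 2 with no filter and with a pseudocount of 5, 4 with the libraries of 6 leaves alone and 4 without both B libraries of 4 leaves, and DESeq2 called 38; it was 1 with the other filters, a pseudocount of 0.5, TMM scaling and edgeR. The replicate block also left 1 gene called and changed no other adjusted call of a named gene; taken with the 4 libraries of 6 leaves alone, and chosen after the data were seen, it called 1201. The DESeq2 count ran between 5 and 71 when 1 library was left out and was 74 without both B libraries of 4 leaves, fits also chosen after the data were seen. The counts at an unadjusted p under 0.05 ran between 221 and 916 for higher genes and between 238 and 750 for lower genes over the fits that left out 1 library; the lowest came without WT B of 6 leaves. The cause of these changes was not tested. Among named genes, leaving out 1 library turned the sign of the log2 fold change of AP2a at 6 leaves (-0.32 to 0.25) and, at 4 leaves, of Solyc01g088430 (-0.52 to 0.057), IAA15 (-0.50 to 0.15) and PIIF (-1.21 to 0.0058). No other setting turned the sign of a named gene at 6 leaves. The check covered the genes named by the rules, and not other list members given in the text, such as TKN2, WUS and CLV1.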

Other observations

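Other genes that DESeq2 called at 6 leaves carry no RefSeq name here. Solyc01g098400 had 561 and 474 normalized counts in ltm A and B and 159 and 256 in WT A and B, and rose (log2 fold change 1.35 ± 0.30 SE in limma, DESeq2 adjusted p = 0.00903). Solyc04g050520 had 2001 and 1908 in ltm A and B and 1314 and 999 in WT A and B, and rose (DESeq2 adjusted p = 0.0115). Solyc06g051260 had 914 and 779.8 in ltm A and B and 466 and 432 in WT A and B, and rose (DESeq2 adjusted p = 0.0399). In these genes both ltm libraries lay above both WT libraries. Each of their calls was lost without ltm A or ltm B of 6 leaves, and that of Solyc06g051260 without any 1 library of 6 leaves.

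On the lower side, Solyc01g066880 had 48.3 and 74.0 normalized counts in ltm A and B and 149 and 291 in WT A and B, and Solyc07g056440 had 14.2 and 35 in ltm and 73.7 and 198 in WT; both fell (DESeq2 adjusted p = 0.00939 and 0.0338). In both genes WT B was well above WT A. Solyc05g009990 had 559 and 607 in ltm A and B and 883 and 912 in WT A and B, with repeats close together, and fell by a smaller amount (log2 fold change -0.62 ± 0.10 SE in limma, DESeq2 adjusted p = 0.0307). Each of these calls was lost without any 1 of ltm A, ltm B and WT B of 6 leaves. That of Solyc05g009990 was also lost without WT A of 6 leaves or either WT library of 4 leaves.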
